A study of Hansenula anomala with 15 samples.

Results

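The zinc-binding regulators described here are 27 genes of Wickerhamomyces anomalus, a yeast that the organism label calls Hansenula anomala, out of 6571 genes in the deposited count table. They were chosen by their deposited Gene Ontology annotation: zinc ion binding together with at least 1 of 3 terms, which stand for DNA-binding factors of RNA polymerase II, for DNA-binding factors in general and for regulation of DNA-templated transcription, with the gene WICANDRAFT_76792 left out. Polyadenylated RNA of whole fermentation broth was sequenced at 0, 16, 32, 48 and 64 h, in a study of the volatile compounds of apricot fermentation. Each time point has 3 libraries, which the labels call biological replicates without saying whether they were separate fermentations. The p-values therefore measure the spread between these samples. All groups share the organism and the kind of sample, and the labels give no strain, inoculum, medium or treatment.

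In fungi, many transcription factors carry a binuclear zinc cluster, a DNA-binding domain in which cysteines hold zinc ions. Members of that family switch on genes for the use of sugars, organic acids, amino acids and nucleotide precursors, and many are controlled as proteins as well as in transcript level. Zinc is also held by other folds, among them the C2H2 finger of many DNA-binding proteins, the copper fist, the zinc ribbon of general transcription factors and the RING domain of ubiquitin ligases.

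The rule gathered a wider set than the name zinc cluster. The term for regulation of transcription was carried by all 27 genes, and 13 of them carried neither of the other 2 terms. The term for DNA-binding factors of RNA polymerase II was carried by 13 genes. No deposited description of the 27 names a zinc cluster (0 of 27), and protein sequences were not used here. Only 16 of the 27 have a KOG description, and CAT8, PPR1 and ASG1 are among those without. The 0 therefore does not show that zinc cluster factors are absent. RefSeq gives a symbol to 18 of them, taken as the name of a likely counterpart in Saccharomyces cerevisiae. The set holds 13 DNA-binding factors, which are the genes with the term for factors of RNA polymerase II. By names and descriptions the others are 4 general transcription factors, 2 chromatin enzymes, 6 ubiquitin ligases and 2 other genes. Of the DNA-binding factors, CAT8, PPR1 and ASG1 carry the names of zinc cluster factors of S. cerevisiae. The remainder includes CUP2, a copper fist factor, ADR1, a C2H2 factor, FAP1, an NF-X1 type protein, and 7 genes without a symbol. Conversely, a list of 65 factor symbols, mostly zinc cluster factors, found 20 genes in the annotation, of which 17 were outside the rule because 0 of those 17 carry the zinc term. The set is called zinc-binding regulators below.

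Levels are in CPM, the counts of a gene in each 1 M of its library, scaled by TMM (trimmed mean of M values, which aligns libraries on the bulk of their genes). A time point is given by the mean and SD of its 3 libraries (n = 3). Library totals lay between 17.58 and 40.09 M counts, so that 3 counts corresponded to 0.0748 to 0.171 CPM, a limit that covers counting error only. In 26 of the 27 genes every library held more than 3 counts, and all 27 passed the low-count filter. CPM is a share of each library: fewer cells with a transcript, less of it per cell and more of other transcripts cannot be told apart. The libraries 16 h replicate 2 and 64 h replicate 3 stood apart. Their best Spearman's rho with a library of the same time point, across 4453 genes of at least 10 CPM that are not independent replicates, was 0.742 and 0.837, and at least 0.886 in the other 13 libraries. Some libraries correlated best with another time point. For 64 h replicate 3 this was 32 h replicate 2 (0.951). The same held between 32 h replicate 3 and 48 h replicate 2 (0.965), and for 48 h replicate 1 with 32 h replicate 2 (0.954). The reason was not tested. Among the 27 genes, 10 were over 2-fold above or below both of their replicates in 16 h replicate 2 and 7 in 64 h replicate 3, against 0 to 6 in the other libraries. Results are given with all libraries, and beside them the calls that were gained or lost without either or both of these.

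Per length, the zinc-binding regulators spanned from 1.38 CPM per kb (WICANDRAFT_28061) to 126 CPM per kb (SPT4), as the mean of the 5 time points. Their median was 12.5 CPM per kb, against 16.6 CPM per kb over all tested genes, and 10 of the 27 lay above the latter value. The highest levels per kb belonged to SPT4 (126), SUA7 (118), FAP1 (69.5), ASR1 (57.9), CUP2 (36.7), WICANDRAFT_79105 (31.6), ELF1 (27.1) and TUL1 (26.7). Lengths are those of the RefSeq gene models, and the model of CUP2 is only 183 bp long, that of SPT4 379 bp. The low end held genes without a symbol for the most part: WICANDRAFT_28061, WICANDRAFT_61670 (1.75), WICANDRAFT_18027 (2.67) and the named gene ADR1 (2.81).

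**Figure D1:**
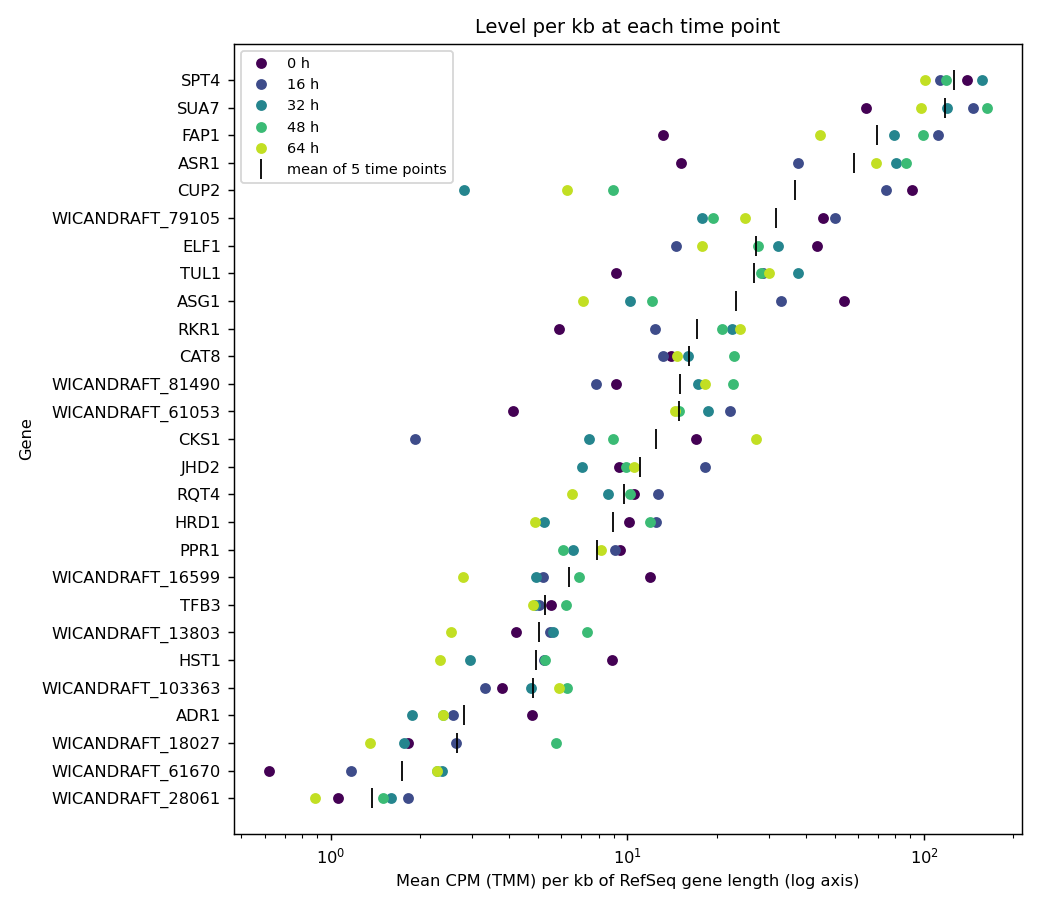
Mean level per kb of RefSeq gene length (CPM scaled by TMM, log axis) of the 27 genes, with a dot for each time point and a bar for the mean of the 5. The genes spread from 1.38 to 126 CPM per kb, and the dots of CUP2, CKS1 and FAP1 lie far apart while those of TFB3 and CAT8 lie close together.

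Over the course of the fermentation 16 of the 27 genes changed (59.3%), against a background of 68.5% of the 6327 genes tested (edgeR quasi-likelihood F test over the 5 time points, Benjamini-Hochberg adjusted p under 0.05 over all tested genes). The share of members was thus near that of all genes. The highest mean of the 16 fell on 0 h in 5 genes, on 16 h in 4, on 32 h in 2, on 48 h in 3 and on 64 h in 2. For the 4336 changed genes of the whole table the shares, in the same order, were 33.2, 24.8, 10.8, 11.4 and 19.8%. A difference between the members and these shares was not tested. Changed genes made up 6 of the 13 DNA-binding factors, 2 of 4 general transcription factors, 1 of 2 chromatin enzymes, 5 of 6 ubiquitin ligases and both of the other genes. The number changed lay between 11 and 19 when single libraries were left out, for which the share of all genes is not given here.

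**Figure D2:**
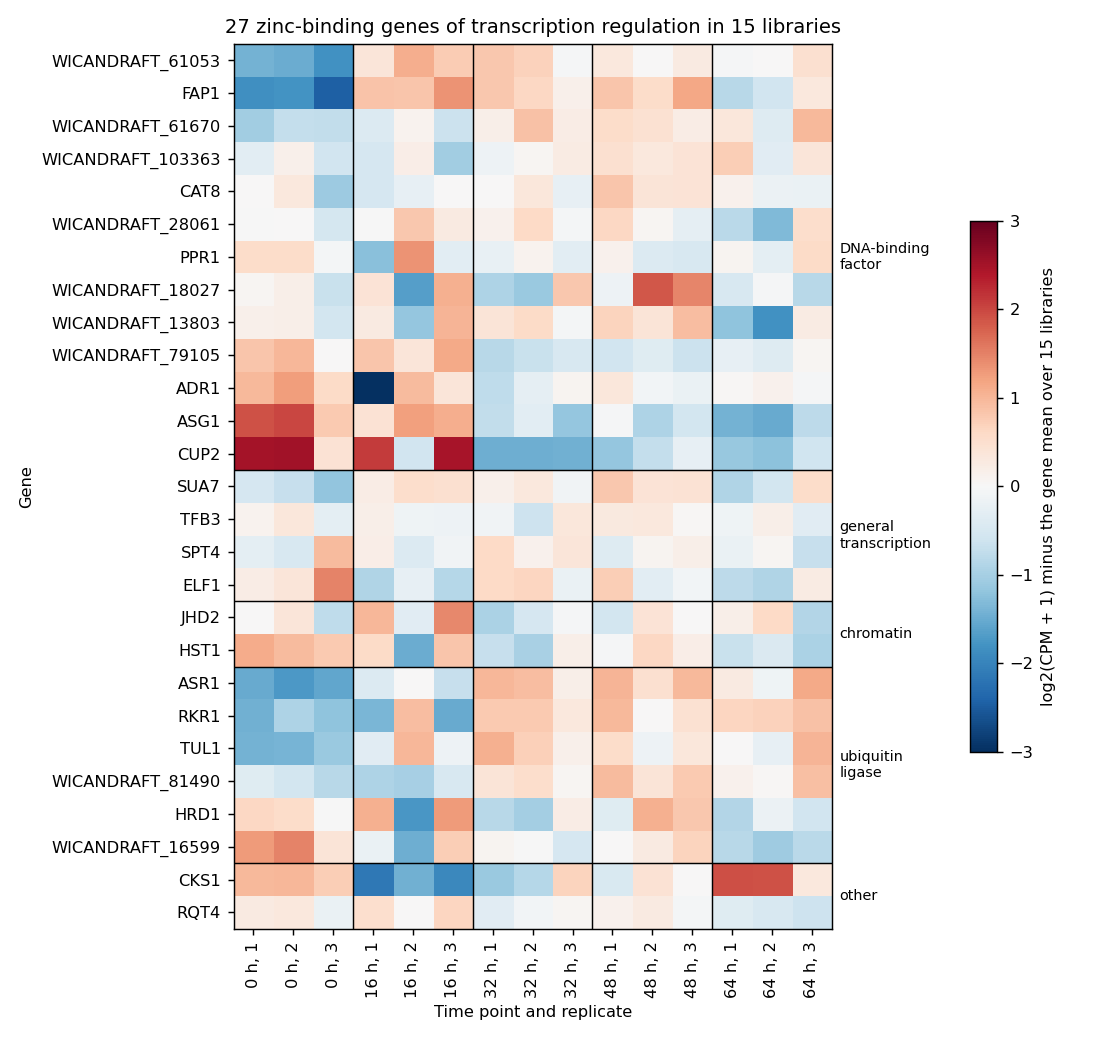
Each row is a gene and each column a library, grouped by role and by time point; colour gives log2(CPM + 1) minus the gene's mean over the 15 libraries, with values beyond 3 shown at the end of the scale. FAP1, WICANDRAFT_61053, ASR1 and TUL1 are low in all 0 h libraries, CUP2 and ASG1 are high early, and the single dark blue cell is the count of 0 for ADR1 in 16 h replicate 1.

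From 0 h to 16 h, 5 of the 27 genes rose and 3 fell, against backgrounds of 22.6% risen and 17.8% fallen among all tested genes. Library size scaling in place of TMM, which shifted the median log2 change of all genes by -0.69, gave 2 risen and 3 fallen, against 9.8% and 27.7% of all genes. The median log2 change of the 27 was 0.13, and that of all tested genes 0.09. From 16 h to 32 h, 3 rose and 4 fell (backgrounds 14.1% and 17.7%; medians -0.19 and -0.06). That comparison depended most on the settings: with library size scaling (shift 1.16) it gave 11 risen and 1 fallen (44.4% and 4.5% of all genes). With 16 h replicate 2 and 64 h replicate 3 left out, the counts were 7 risen and 7 fallen (22.8% and 24.1%). Between 64 h and 0 h, 7 rose and 7 fell, at shares of 25.9% each against backgrounds of 26.6% and 25.8% (medians -0.22 and -0.02). With library size scaling (shift 0.26) 7 rose and 4 fell, against 27.2% and 17.2%. Neighbouring comparisons share libraries (the 0 h libraries serve 2 of them, those of 16 h another 2), so their values are not independent of each other.

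**Figure D3:**
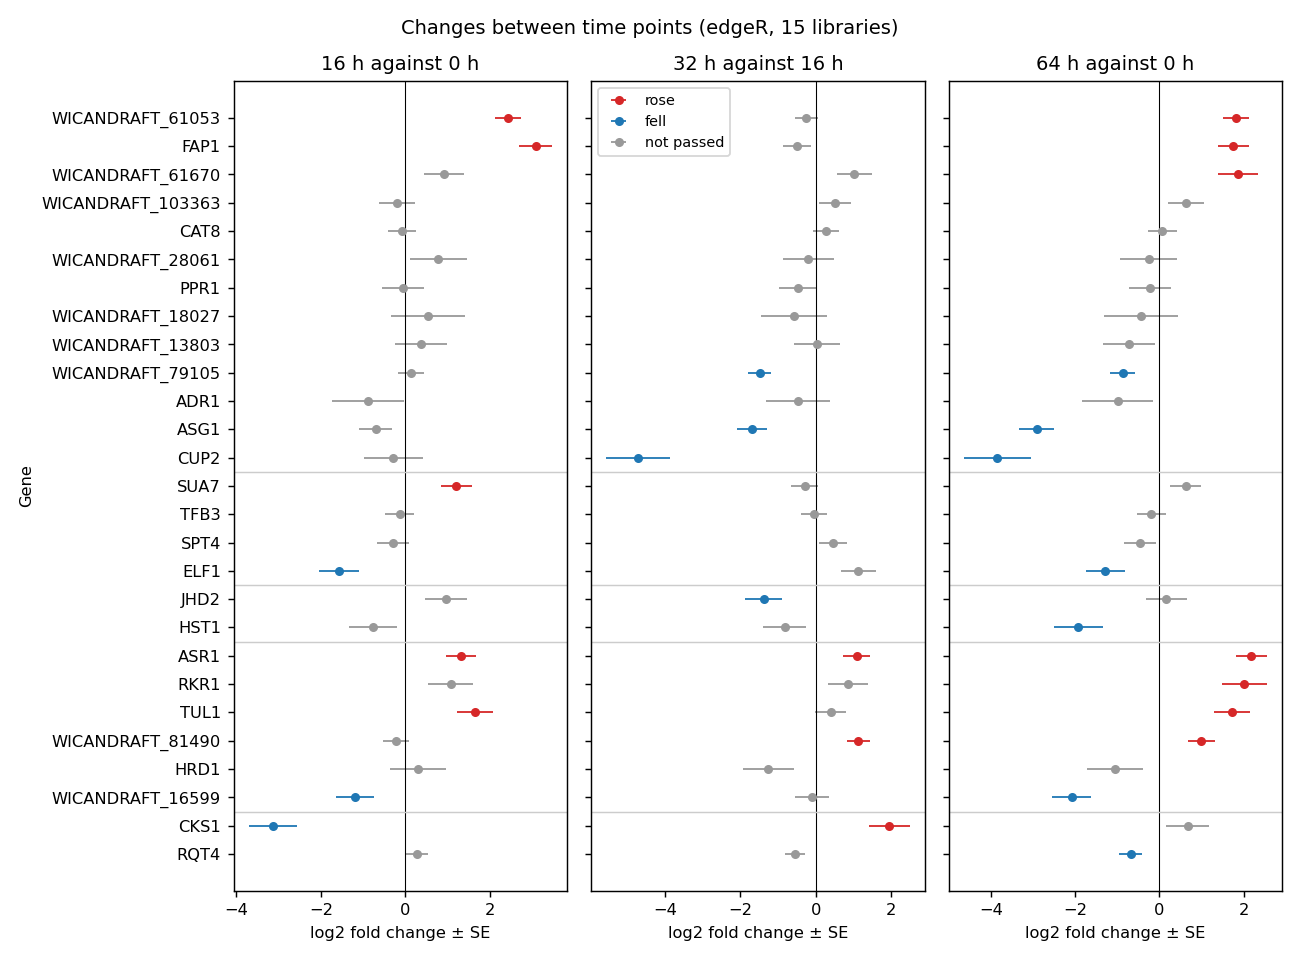
Log2 change ± SE of each of the 27 genes in 3 comparisons, in the order of the heat map; red marks genes that rose, blue genes that fell and grey those that did not pass (edgeR, adjusted p under 0.05). FAP1 and WICANDRAFT_61053 lie to the right in the panels against 0 h, and CUP2 and ASG1 to the left in the panel of 32 h against 16 h and in that of 64 h.

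Among the DNA-binding factors, FAP1 and WICANDRAFT_61053 were the members that rose by 16 h. FAP1 is named for a protein of S. cerevisiae that binds the receptor protein of rapamycin. It measured 38.6, 39.8 and 25.0 CPM in the 0 h libraries and 254, 253 and 362 CPM at 16 h. Every 16 h value lay far above every 0 h value, and the mean rose 8.41-fold (log2 change 3.07, SE 0.391, edgeR adjusted p = 4.25e-05). At 32 h and 48 h it held 206 ± 44.5 and 258 ± 55.0 CPM. At 64 h its libraries held 78.7, 93.8 and 176 CPM, all above the 0 h values, so that it was 3.37-fold higher than at 0 h (log2 change 1.75, SE 0.372, adjusted p = 0.00133). The highest of these 3 came from 64 h replicate 3, which stood apart. The step from 48 h to 64 h did not pass (log2 change -1.15, SE 0.366, adjusted p = 0.0808), but passed without 64 h replicate 3 (-1.58, adjusted p = 0.0112) and without 16 h replicate 2 (-1.15, adjusted p = 0.0465).

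WICANDRAFT_61053 has no symbol or description beyond its terms. It measured 13.2, 12.5 and 9.87 CPM at 0 h and 47.9, 79.7 and 63.9 CPM at 16 h. All later libraries stayed above the 0 h range, the lowest of them at 35.9 CPM. The mean rose 5.39-fold by 16 h (log2 change 2.43, SE 0.311, adjusted p = 4.37e-05) and was 3.53-fold higher at 64 h than at 0 h (1.82, SE 0.305, adjusted p = 0.000225). Both calls passed under every alternative run, library size scaling included, where the change at 16 h was 1.77 (adjusted p = 0.0063).

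WICANDRAFT_61670 rose from a low level. It held 0.78, 1.23 and 1.21 CPM at 0 h and 3.69, 1.82 and 6.27 CPM at 64 h. The ranges did not overlap, and the 64 h mean was 3.66-fold higher (log2 change 1.87, SE 0.477, adjusted p = 0.00453). The step from 16 h to 32 h passed without 16 h replicate 2 (1.41, adjusted p = 0.0387). Its deposited terms are identical to those of WICANDRAFT_28061 (139 shared by both), a gene of similar length that did not change over the time points (adjusted p = 0.579). WICANDRAFT_28061 measured 0.798 and 0.261 CPM in 64 h replicates 1 and 2 and 3.51 CPM in replicate 3. Without 64 h replicate 3 it was lower than at 0 h (log2 change -1.80, adjusted p = 0.0274) and than at 48 h (-2.29, adjusted p = 0.0238), and changed over the time points (adjusted p = 0.0224). Within a library its level was 0.143 to 2.75 times that of WICANDRAFT_61670. Whether reads are shared between them was not tested.

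CUP2, ASG1 and WICANDRAFT_79105 fell between 16 h and 32 h. CUP2 in S. cerevisiae is the copper-dependent activator of metallothionein genes. It measured 22.5, 22.9 and 4.63 CPM at 0 h, 16.9, 1.81 and 22.1 CPM at 16 h, and 0.520, 0.501 and 0.526 CPM at 32 h. The low values of the first time points came from 0 h replicate 3 and from 16 h replicate 2, and even these lay above all 32 h values. The mean fell 26.3-fold from 16 h to 32 h (log2 change -4.71, SE 0.84, adjusted p = 0.000947), and at 64 h it was 14.5-fold lower than at 0 h (-3.86, SE 0.796, adjusted p = 0.00109). No library held fewer than 10 counts of this short gene.

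ASG1 is named for a zinc cluster activator of stress response genes. Its libraries held 169, 180 and 77.4 CPM at 0 h, 59.9, 106 and 95.3 CPM at 16 h, and 26.0, 35.6 and 19.4 CPM at 32 h. By 64 h it stood at 16.0, 15.02 and 25.2 CPM, far below the 0 h range. It fell 3.23-fold from 16 h to 32 h (log2 change -1.69, SE 0.399, adjusted p = 0.00591) and was 7.58-fold lower at 64 h than at 0 h (-2.92, SE 0.418, adjusted p = 6.27e-05). The first of these did not pass with library size scaling (-0.59, adjusted p = 0.368), and the second did (-2.70, adjusted p = 0.00118). WICANDRAFT_13803 carries all 123 terms of ASG1 and had no call in any comparison.

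WICANDRAFT_79105, without a symbol, measured 76.7, 55.1 and 94.8 CPM at 16 h and 23.6, 26.5 and 30.6 CPM at 32 h. These ranges lie apart, and the mean fell 2.81-fold (log2 change -1.49, SE 0.308, adjusted p = 0.00248), but not past the threshold with library size scaling (-0.30, adjusted p = 0.611). Its 64 h mean of 37.5 ± 6.09 CPM was below the 68.9 ± 22.8 CPM of 0 h (-0.88, adjusted p = 0.0251), with a value of 44.3 CPM at 64 h inside the 0 h range. That call ended with library size scaling (-0.67, adjusted p = 0.253), as did that over the time points (0.369), and it ended without 0 h replicate 1 (adjusted p = 0.0804), 0 h replicate 2 (0.108), 64 h replicate 1 (0.0707) or 64 h replicate 2 (0.074).

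**Figure D4:**
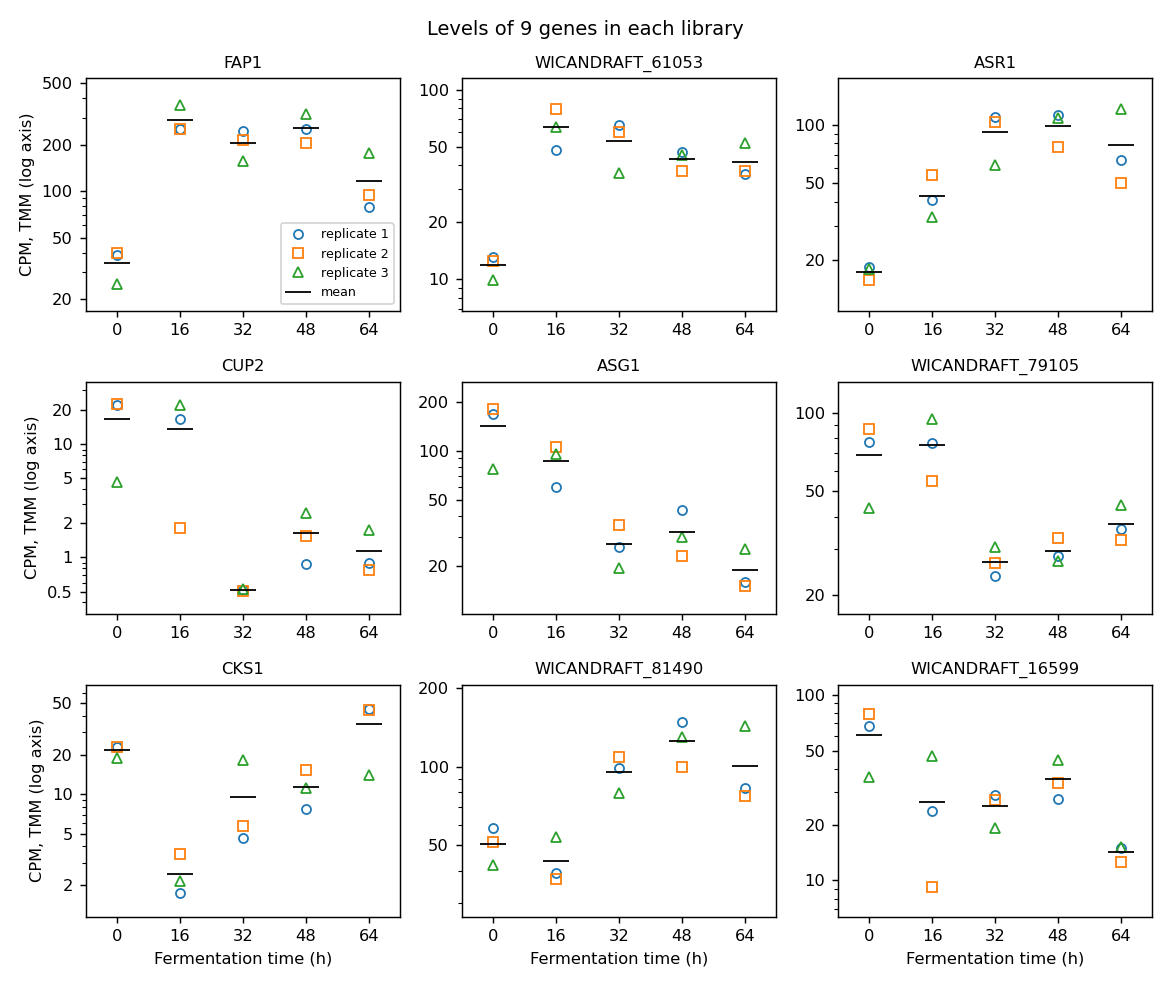
CPM (scaled by TMM, log axis) of 9 genes against fermentation time, with a symbol for each replicate and a bar for the mean of 3. The 0 h symbols of FAP1, WICANDRAFT_61053 and ASR1 lie below all later ones, while CUP2 drops to about 0.5 CPM in all 3 libraries of 32 h.

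CAT8 did not pass in any comparison. In S. cerevisiae Cat8 is the zinc cluster activator of gluconeogenic genes. Its libraries held 52.9, 65.1 and 24.2 CPM at 0 h, 44.6 ± 8.03 CPM at 16 h, 54.2 ± 11.2 at 32 h, 93.2, 68.4 and 70.0 CPM at 48 h and 57.7, 45.9 and 45.6 CPM at 64 h. The 48 h values were the highest, and the 64 h values fell within the range of 0 h. The log2 change was -0.09 (SE 0.337) at 16 h, 0.07 (SE 0.337) at 64 h against 0 h, and the adjusted p over the 5 time points was 0.204. With library size scaling CAT8 did change over the time points (adjusted p = 0.00469), and it rose from 16 h to 32 h by 1.41 on the log2 scale (adjusted p = 0.0257), where the median of all genes shifted by 1.16.

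WICANDRAFT_103363 carries the locus tag next to that of CAT8 and the same 154 terms. Its level was 0.0346 to 0.153 times that of CAT8 in the same library, and its time point means ran from 3.55 to 6.75 CPM. It did not pass either (adjusted p = 0.221 over the time points), though it passed without 16 h replicate 2 (0.041) and with library size scaling (0.0116). Positions of the CAT8 and WICANDRAFT_103363 models are not given here, and whether they belong to 1 gene was not tested.

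PPR1, in S. cerevisiae the zinc cluster activator of pyrimidine synthesis genes, had 1 library far from the others. It measured 6.30, 43.2 and 13.1 CPM at 16 h, with the high value in replicate 2, and 24.4, 24.7 and 15.9 CPM at 0 h. The groups overlapped, and the change did not pass (log2 change -0.06, SE 0.507, adjusted p = 0.937). Without 16 h replicate 2, PPR1 was lower at 16 h than at 0 h (-1.16, adjusted p = 0.0271).

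ADR1 was the only member with a count of 0. In S. cerevisiae Adr1 activates genes that glucose represses, among them ADH2 and peroxisomal genes. It was listed at 0 in 16 h replicate 1, while the other 14 libraries held between 94 and 1013 counts and the other 16 h libraries 18.2 and 11.9 CPM. The 0 h libraries held 18.7, 23.0 and 13.9 CPM and those of 64 h 9.28, 9.86 and 8.69 CPM, so that every 64 h value lay below every 0 h value. With all libraries ADR1 did not pass (adjusted p = 0.572 over the time points, 0.339 for 64 h against 0 h). Without 16 h replicate 1 it did, with adjusted p = 0.00978 over the time points. In that fit it was lower at 64 h than at 0 h by an unchanged -1.0 on the log2 scale, with an SE of 0.315 in place of 0.851 (adjusted p = 0.0171), and lower at 32 h than at 16 h (-1.05, adjusted p = 0.0414).

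The remaining DNA-binding factors, WICANDRAFT_18027 and WICANDRAFT_13803, had no symbol and did not pass in any comparison. WICANDRAFT_18027 was scattered at several time points. It held 4.54, 0.323 and 7.65 CPM at 16 h, 1.20, 0.913 and 6.26 CPM at 32 h, and 2.74, 14.02 and 10.46 CPM at 48 h. Without 32 h replicate 3 it changed over the time points (adjusted p = 0.0392), and with library size scaling too (0.0202). WICANDRAFT_13803 measured 12.2, 9.90 and 14.8 CPM at 48 h and 2.59, 1.35 and 8.81 CPM at 64 h, which lay lower in every library (log2 change -1.53, SE 0.626, adjusted p = 0.149). Without 64 h replicate 3, which held the highest 64 h value, it was -2.64 (adjusted p = 0.0113). In that fit it also changed over the time points (adjusted p = 0.0185) and was lower at 64 h than at 0 h (-1.85, adjusted p = 0.0194).

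**Figure D5:**
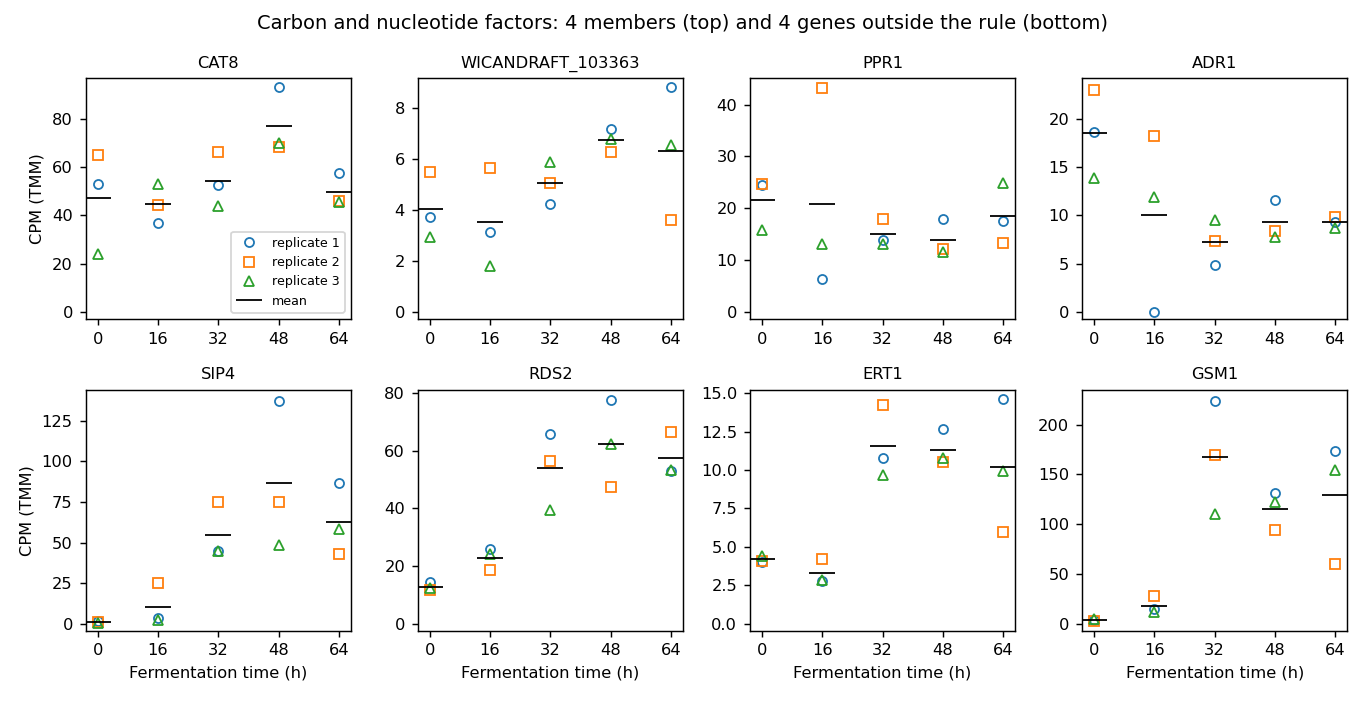
CPM (scaled by TMM, linear axis) against fermentation time for 4 zinc-binding regulators (top: CAT8, WICANDRAFT_103363 with the next locus tag, PPR1 and ADR1) and 4 factors outside the rule (bottom: SIP4, RDS2, ERT1 and GSM1), with a symbol for each replicate and a bar for the mean of 3. The top row shows no common trend, the lone 0 of ADR1 and the single high value of PPR1 at 16 h. The 4 genes of the bottom row are higher from 32 h on. GAL4, the other listed carbon factor outside the rule, is not drawn and was 9.86-fold lower at 64 h than at 0 h.

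Of the general transcription factors, SUA7 rose and ELF1 fell by 16 h. SUA7 encodes TFIIB, which places RNA polymerase II at promoters. It measured 77.9, 67.9 and 48.5 CPM at 0 h and 130, 161 and 155 CPM at 16 h. These values do not overlap, and the mean rose 2.29-fold (log2 change 1.20, SE 0.364, adjusted p = 0.0166). The call ended without 0 h replicate 3 (1.03, adjusted p = 0.0601) and with library size scaling (0.50, adjusted p = 0.451). At 64 h replicate 3 held 164 CPM against 59.2 and 76.0 CPM in the other libraries, and without it SUA7 fell from 48 h to 64 h (-1.29, adjusted p = 0.0151). Its change over the time points (adjusted p = 0.0308) was lost without 0 h replicate 1 (0.0556), 0 h replicate 2 (0.0781), 0 h replicate 3 (0.0923), 48 h replicate 1 (0.0696) or 48 h replicate 3 (0.0529).

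ELF1 encodes a zinc ribbon protein of transcription elongation. It held 12.3, 13.5 and 30.7 CPM at 0 h and 5.06, 8.65 and 5.29 CPM at 16 h, a fall of 2.97-fold on the means (log2 change -1.57, SE 0.474, adjusted p = 0.016). The highest value came from 0 h replicate 3, and the other 0 h values also lay above the 16 h range. The call ended without 0 h replicate 3 (-1.03, adjusted p = 0.0984), 16 h replicate 1 (0.058) or 16 h replicate 3 (0.0528). At 64 h it was 2.44-fold lower than at 0 h (-1.29, adjusted p = 0.0316), with 64 h replicate 3 at 12.5 CPM inside the 0 h range; this ended without 0 h replicate 3 (adjusted p = 0.193), 64 h replicate 1 (0.11) or 64 h replicate 2 (0.107), and with library size scaling (-0.79, adjusted p = 0.244). ELF1 rose from 16 h to 32 h without 16 h replicate 2 (1.43, adjusted p = 0.0443). The change over the time points (adjusted p = 0.0416) was lost without any 1 of 8 libraries, among them 0 h replicate 3 (0.111).

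SPT4, another elongation factor, and TFB3, a subunit of TFIIH, did not change. SPT4 measured 37.3, 32.3 and 88.8 CPM at 0 h and between 28.1 and 69.7 CPM in all later libraries (adjusted p = 0.501 over the time points). In 0 h replicate 3 it was over 2-fold above both replicates, as was ELF1, and these are the shortest models of the set after CUP2. CUP2 itself was over 2-fold below both replicates there, and a relation to length was not tested. TFB3 had the narrowest range, with time point means from 4.85 to 6.23 CPM (adjusted p = 0.81). With library size scaling both passed over the time points (adjusted p = 0.00147 for SPT4 and 0.018 for TFB3).

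Both chromatin enzymes had 1 call each. HST1, a histone deacetylase of the Sir2 family, measured 12.3, 10.7 and 9.47 CPM at 0 h and 2.84, 3.52 and 2.17 CPM at 64 h. The 64 h values lay below every 0 h value, and the mean was 3.80-fold lower (log2 change -1.93, SE 0.581, adjusted p = 0.0122). Its change over the time points (adjusted p = 0.0437) was lost when any library other than 16 h replicate 2, 16 h replicate 3 or 32 h replicate 3 was left out, with adjusted p up to 0.113. In a fit that left out 16 h replicate 2, HST1 fell from 16 h to 32 h (-1.31, adjusted p = 0.0185) and from 48 h to 64 h (-1.18, adjusted p = 0.0487). JHD2, a demethylase of histone H3 with a JmjC domain, fell 2.60-fold from 16 h to 32 h (-1.38, SE 0.499, adjusted p = 0.0471). Its 16 h libraries held 42.6, 16.3 and 59.2 CPM and its 32 h libraries 10.4, 14.5 and 20.4 CPM, which overlap. Without 16 h replicate 2 it changed over the time points (adjusted p = 0.025) and rose from 0 h to 16 h (1.33, adjusted p = 0.033). The JHD2 call ended when any library other than 16 h replicate 2, 0 h replicate 3, 32 h replicate 3, 64 h replicate 2 or 64 h replicate 3 was left out, with adjusted p between 0.053 and 0.201. With library size scaling it was -0.15 (adjusted p = 0.836).

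Of the 6 ubiquitin ligases 5 changed, and 4 of them were higher at 64 h than at 0 h (median log2 change 1.36). Over all tested genes 68.5% changed and 26.6% rose at 64 h against 0 h, with a median of -0.02, and a difference between the ligases and other genes was not tested. ASR1 is named for a RING and PHD finger ligase of S. cerevisiae that acts on RNA polymerase II. It measured 18.3, 15.8 and 17.9 CPM at 0 h, 40.8, 54.8 and 33.4 CPM at 16 h and 110, 104 and 61.6 CPM at 32 h. The ranges do not overlap at either step. It rose 2.48-fold to 16 h (log2 change 1.31, SE 0.359, adjusted p = 0.00921) and a further 2.14-fold to 32 h (1.09, SE 0.356, adjusted p = 0.0303). At 64 h it was 4.55-fold higher than at 0 h (2.19, SE 0.368, adjusted p = 0.000233). The first step did not pass with library size scaling (0.65, adjusted p = 0.278). The second ended without 16 h replicate 1 (adjusted p = 0.0806), 16 h replicate 3 (0.109), 32 h replicate 1 (0.0977) or 32 h replicate 2 (0.095).

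TUL1, a ligase of the Golgi in S. cerevisiae, rose from 19.7, 19.9 and 24.2 CPM at 0 h to 42.4, 108 and 48.5 CPM at 16 h. The highest value came from 16 h replicate 2, and the others also exceeded all 0 h values. The rise was 3.12-fold (log2 change 1.64, SE 0.427, adjusted p = 0.00683), or 1.10 on the log2 scale without both libraries that stood apart (adjusted p = 0.00961), and 1.06 with library size scaling (adjusted p = 0.121). At 64 h TUL1 was 3.28-fold higher than at 0 h (1.72, SE 0.428, adjusted p = 0.00392). Without both libraries that stood apart it also rose from 16 h to 32 h (0.94, adjusted p = 0.0254). Its change over the time points ended without 0 h replicate 1 (adjusted p = 0.0523) or 0 h replicate 2 (0.0507).

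RKR1 is named for a ligase of S. cerevisiae that marks stalled nascent chains at the ribosome. Its KOG description differs and names subunit 11 of the anaphase-promoting complex. RKR1 measured 8.14, 12.0 and 9.75 CPM at 0 h and 37.8, 39.1 and 44.6 CPM at 64 h. These are 4.06-fold apart on the means (log2 change 2.02, SE 0.543, adjusted p = 0.00637). At 16 h it held 8.65 and 7.81 CPM in replicates 1 and 3 but 46.3 CPM in replicate 2, the level of the later time points. With all libraries neither the step to 16 h (adjusted p = 0.124) nor that to 32 h (0.223) passed. Without 16 h replicate 2 the latter passed at 2.21 on the log2 scale (adjusted p = 0.000241), and without 16 h replicate 1 or 16 h replicate 3 the former did (1.43 and 1.46, adjusted p = 0.0457 and 0.0335). Its change over the time points ended without 0 h replicate 1 (adjusted p = 0.0922), 0 h replicate 2 (0.0579) or 0 h replicate 3 (0.0782).

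A pair of genes described as UBR1-like, the recognition component of the N-end rule pathway, went in opposite directions. WICANDRAFT_81490 measured 39.2, 37.2 and 54.0 CPM at 16 h and 99.3, 109 and 79.0 CPM at 32 h, a rise of 2.20-fold with no overlap (log2 change 1.14, SE 0.315, adjusted p = 0.0139; 0.0556 without 32 h replicate 2). At 64 h it was 2.0-fold higher than at 0 h (1.0, SE 0.314, adjusted p = 0.0154), which ended without 64 h replicate 3 (0.66, adjusted p = 0.0819). WICANDRAFT_16599 held 67.6, 78.2 and 35.9 CPM at 0 h and 14.96, 12.6 and 15.1 CPM at 64 h, and was 4.26-fold lower at the end (-2.09, SE 0.468, adjusted p = 0.00195). It also fell 2.29-fold to 16 h, where 23.6, 9.23 and 46.5 CPM overlapped the 0 h range (-1.19, SE 0.456, adjusted p = 0.0483). That call ended when any library other than 0 h replicate 3 or 16 h replicate 3 was left out, with adjusted p between 0.0502 and 0.158, and the change moved to -0.79 without 16 h replicate 2 (adjusted p = 0.118) and to -1.88 without 16 h replicate 3. WICANDRAFT_16599 had no call from 48 h to 64 h, but fell there without 16 h replicate 2 (-1.3, adjusted p = 0.0274). The pair shared 131 terms, and within a library the level of WICANDRAFT_16599 was 0.105 to 1.52 times that of WICANDRAFT_81490.

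HRD1, the ligase that removes misfolded proteins of the endoplasmic reticulum, did not pass (adjusted p = 0.205 over the time points). At 16 h it measured 16.8 and 19.7 CPM in replicates 1 and 3 and 1.55 CPM in replicate 2. Without 16 h replicate 2 it changed over the time points (adjusted p = 0.0111) and fell from 16 h to 32 h (log2 change -1.77, adjusted p = 0.0106).

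CKS1 and RQT4 belong to none of these roles. CKS1, the regulatory subunit of the cyclin-dependent kinase Cdc28, had a dip at 16 h. It measured 23.0, 23.0 and 19.1 CPM at 0 h, 1.76, 3.49 and 2.16 CPM at 16 h, and 4.62, 5.71 and 18.2 CPM at 32 h. The 16 h values lay far below those of 0 h and below those of 32 h, the highest at 16 h (3.49 CPM) close to the lowest at 32 h (4.62 CPM), and 32 h replicate 3 stood above its group. CKS1 fell 8.80-fold to 16 h (log2 change -3.14, SE 0.566, adjusted p = 0.000582) and rose 3.87-fold to 32 h (1.95, SE 0.546, adjusted p = 0.0149). The rise ended without 32 h replicate 3 (1.07, adjusted p = 0.0992), 16 h replicate 1 (0.0563) or 16 h replicate 3 (0.0552). At 64 h it held 45.4, 44.4 and 14.03 CPM, the low value in replicate 3. Compared with 48 h this did not pass (1.60, adjusted p = 0.0881), but did without 64 h replicate 3 (1.97, adjusted p = 0.015).

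RQT4, a component of the complex that splits collided ribosomes in S. cerevisiae, had the smallest called change. It held 17.1, 17.9 and 12.1 CPM at 0 h and 10.6, 9.81 and 8.77 CPM at 64 h, with no overlap (log2 change -0.69, SE 0.264, adjusted p = 0.0395). The call was lost when any library other than 0 h replicate 3, 32 h replicate 3 or those of 16 h was left out, with adjusted p between 0.0552 and 0.122. It was also lost without both libraries that stood apart (-0.62, adjusted p = 0.0542) and with library size scaling (-0.51, adjusted p = 0.34). The change over the time points (adjusted p = 0.0438) was lost without any 1 of 12 libraries, with adjusted p up to 0.102. RQT4 fell from 16 h to 32 h without 16 h replicate 2 (-0.73, adjusted p = 0.0333).

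Between 32 h and 48 h, edgeR called 0 of the 27 genes and 0% of all genes in either direction. An unadjusted p under 0.05 was reached by 1 of the 27, against 5.48% of all genes; limma-voom called 0 of them (0% of all genes) and DESeq2 0 (0.0308%). From 48 h to 64 h edgeR called 0 of the 27, against 0% risen and 0.0158% fallen. Here 6 had an unadjusted p under 0.05 (24.6% of all genes), limma-voom called 0 (0.569%) and DESeq2 called 2 (13.3%), FAP1 fallen and CKS1 risen. The smallest adjusted p of edgeR among the 27 was 0.0808, that of FAP1. With 16 h replicate 2 and 64 h replicate 3 left out, 1 gene rose and 5 fell, against 14.6% and 15.7% of all genes: CKS1 rose, and FAP1, SUA7, WICANDRAFT_13803, WICANDRAFT_16599 and WICANDRAFT_28061 fell.

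Outside the rule stood several factors of carbon use with calls of their own. The listed carbon source factors that lack the zinc term were 5 genes, all of which changed, and at 64 h against 0 h 4 of them rose and 1 fell (median log2 change 2.17). Of all tested genes 68.5% changed, and 26.6% rose and 25.8% fell at 64 h against 0 h, with a median of -0.02. SIP4, like CAT8 an activator of gluconeogenic genes, went from 1.13 ± 0.405 CPM at 0 h to 62.5 ± 22.2 CPM at 64 h (54.6-fold, adjusted p = 6.47e-05). GSM1 rose 34.3-fold, RDS2 4.5-fold and ERT1 2.43-fold, and GAL4 fell 9.86-fold. Whether these changes differ from that of CAT8 was not tested. Of all 17 listed factors outside the rule, which include GCN4 and GAT1 of other families, 12 changed over the time points, a share of 70.6% that is close to the 68.5% of all tested genes. At 64 h against 0 h 5 of the 17 rose and 6 fell (29.4% and 35.3%, against 26.6% and 25.8%).

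Known targets of zinc cluster factors of S. cerevisiae were taken from a fixed list of 55 symbols, of which 42 were found. CAT8 and PPR1 are the only members among the factors of that list, so most of these genes are not listed as targets of a member. The list gives no targets for Adr1, which in S. cerevisiae activates peroxisomal genes. Of the 7 targets of Cat8, Sip4 and Rds2 found, 6 rose and 0 fell at 64 h against 0 h (median log2 change 4.99, against -0.02 over all tested genes, of which 26.6% rose and 25.8% fell). Among the 6 were PCK1 from 1.65 ± 0.138 to 2541 ± 1579 CPM and MLS1 from 28.1 ± 4.92 to 892 ± 398 CPM. ACS1 did not pass (0.14, adjusted p = 0.838). Of the 3 targets of Ppr1, URA1 fell 90-fold (adjusted p = 3.61e-07), and URA3 and URA4 did not pass (0.07 and 0.05). Over all 42 targets 18 rose and 13 fell in that comparison (42.9% and 31.0%), against 26.6% and 25.8% of all tested genes.

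Beside the 27, 572 genes carried a term of transcription regulation without the zinc term, and 66 the zinc term without a term of regulation. Of the former, 567 were tested and 69.1% changed over the time points, and of the latter 63.6%. At 16 h against 0 h the regulators without zinc had 9.88% risen and 26.5% fallen genes (median log2 change -0.31), and the zinc-binding genes without regulation 33.3% and 13.6% (median 0.38). The 27 stood at 18.5% and 11.1%, with a median of 0.13. These are counts without a test, and the difference between the lists was not tested.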

How the data were processed

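The values deposited by the authors are raw read counts of each gene, without normalisation; the submitters' processing notes name fastp, HISAT2 and HTSeq, and versions, parameters, strand setting and genome build are not given in the sources used here. Per the labels' protocols, TRIzol RNA was made into polyA libraries. Gene lengths and symbols come from the RefSeq assembly Wican1, whose locus tags matched all 27 members. No coordinates are printed, and no sequences.

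The tests were run in edgeR 4.0.16 under R 4.3.3: filterByExpr by time point (6327 of 6571 genes), TMM, and a quasi-likelihood fit of 5 time point means to all 15 libraries (10 residual degrees of freedom; common BCV, the biological coefficient of variation, 0.418). P-values were adjusted by Benjamini-Hochberg over all tested genes with a threshold of 0.05, and the approximate SE comes from the log2 change and its F value (their size over the root of F). Totals of 17.58 to 40.09 M limit precision as given in the text. The pipeline was tested on simulated data.

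Members and lists were chosen with earlier results of these data known. The DNA-binding factors are the members with the RNA polymerase II factor term, some of them without symbol or KOG description. The other role groups follow symbols and KOG descriptions. Named genes are the 8 highest per kb, up to 5 largest rises and falls per comparison among called members without overlap and with at least 5 CPM, and all members with a symbol; others of the 27 are named to account for the whole set. Alternatives were DESeq2 1.42.0, limma-voom 3.58.1, median-of-ratios and library size scaling, other filters, the 6 libraries compared, a minimum change of 1.5-fold, a replicate block, single libraries left out and a narrower membership.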

Additional observations from a re-analysis of the deposited data

How the results depend on the processing

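No named change reversed. Of 572 values of the 23 named changes under the alternatives, 533 kept direction and side of the threshold. The other 39 kept the direction without passing. Of the 23, 13 never lost their call. These 23 were picked from 29 calls by size, lack of overlap and level, so they do not stand for all calls. Of the calls not picked, that of WICANDRAFT_16599 at 16 h against 0 h ended in 13 of 15 runs without a single library. That of JHD2 at 32 h against 16 h ended in 10. At 64 h against 0 h those of WICANDRAFT_79105, ELF1, WICANDRAFT_81490 and WICANDRAFT_61670 ended in 4, 3, 1 and 0. With library size scaling the members risen at 16 h against 0 h numbered 2 (main 5), those at 32 h against 16 h 11 risen and 1 fallen (main 3 and 4), and those fallen at 64 h against 0 h 4 (main 7). With only the 6 libraries compared 1 rose at 32 h against 16 h, and with a minimum change of 1.5-fold 1 rose there and 4 fell at 64 h against 0 h. For these runs, for single libraries left out and for the replicate block, shares over all genes are not given here. Whether the calls of all genes shifted likewise can therefore not be read from these counts. Without both libraries that stood apart, an alternative chosen after the data were seen, 7 rose and 7 fell at 32 h against 16 h, and 1 rose and 5 fell at 64 h against 48 h; DESeq2 gave 1 and 1 for the latter. The narrower membership by the RNA polymerase II factor term alone holds 13 genes, the same as the DNA-binding factors above, so fewer genes were counted. Of these, 6 changed over the time points, 2 rose and 0 fell at 16 h, and 0 rose and 3 fell at 32 h against 16 h. At 64 h against 0 h 3 rose and 3 fell. The share changed was 46.2%, against 59.3% of all members and 68.5% of all tested genes. At 16 h against 0 h 15.4% rose and 0% fell, against 22.6% and 17.8% of all tested genes. At 32 h against 16 h 0% rose and 23.1% fell. The shares of all members there were 11.1% and 14.8%, and those of all tested genes 14.1% and 17.7%. At 64 h against 0 h the shares were 23.1% each, against 25.9% each of all members and 26.6% and 25.8% of all tested genes. Causes of the differences between settings were not tested. Leaving out single libraries gave 11 to 19 members changed over the time points, 4 to 6 risen and 1 to 3 fallen at 16 h, 1 to 6 and 3 to 7 at 32 h against 16 h, 0 and 0 at 48 h, 0 to 1 and 0 to 4 at 64 h against 48 h, and 6 to 7 and 4 to 8 at 64 h against 0 h. A membership limited to genes shown to hold a zinc cluster was not run, as 0 members are described as such and only 16 have a KOG description. Same-numbered replicates showed no common pairing: 6 of 30 pairs had a correlation over 0.1, and 2 of 15 libraries correlated best with their own number. The correlations ran from -0.612 to 0.529, and they cannot show whether the same fermentations were sampled at several times. With the replicate block 12 members changed over the time points. In that run 5 rose and 2 fell at 16 h, 2 and 3 at 32 h against 16 h, and 7 and 6 at 64 h against 0 h.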

Other observations

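The lone 0 of ADR1 was not the only one. Over all genes, 8 were listed at 0 in a single library while each of the other 14 libraries held at least 90 counts; these 0 values lay in 7 different libraries. Counts of 1 to 9 in a single library, with at least 90 in all others, were found for 1 gene. The 8 genes, chosen after their values were seen, are ADR1 (16 h replicate 1), SPS1 (0 h replicate 3), SEY1 (32 h replicate 2), SPO14 (32 h replicate 1), GCD7 (64 h replicate 3) and the unnamed WICANDRAFT_59962 and WICANDRAFT_61755 (both 16 h replicate 2) and WICANDRAFT_84420 (48 h replicate 1). For GCD7 the other libraries held between 1259 and 4439 counts, and for SEY1 between 265 and 2648. The origin of these 0 values was not tested.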
